A study of Mus musculus with 32 samples.

Results

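Liver sinusoidal endothelial markers were followed as a set of 10 genes (Lyve1, Kdr, Ehd3, Stab1, Stab2, Pecam1, Clec4g, Tek, Flt1 and Vwf) out of 22180 genes measured in mouse liver. The set was given by name, with the probe set of the highest mean level to be taken for each symbol. The members were thus chosen by name, and the 1 measured value in the rule, the mean level over all arrays, decided nothing, since each gene had 1 probe set. The names were put together with earlier results from these arrays in view, and the number of them that passed a test is therefore a description and not independent evidence. Whole liver was measured on 32 arrays, with 1 array per mouse, and all values are log2 expression, on which a difference of 1 is a doubling of signal.

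All mice were wild-type C57BL/6NTac males of 14 weeks, fasted for 10 h before an oral gavage. The gavage was either palm oil at 2 g/kg or, as the control, water. Basal mice (9 palm oil, 7 control) were killed under isoflurane 6 h after the gavage. Clamped mice (9 palm oil, 7 control) began a hyperinsulinemic-euglycemic clamp, in which insulin is infused while blood glucose is held steady, 6 h after the gavage. They received a labelled glucose tracer for 110 min, then insulin at 15 pmol/kg/min, and were killed with ketamine and xylazine. They had also been fitted with a jugular vein catheter under anaesthesia 6 to 7 days earlier. A difference between clamped and basal mice therefore holds insulin, infusion, surgery, the anaesthetic at death and a longer fast together, and these cannot be told apart. The comparison of palm oil with water is free of them within basal and within clamped mice. Animal numbers ran from 15 to 32 in clamped and from 33 to 52 in basal mice. Whatever goes with that number cannot be told apart from the clamp either.

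Sinusoidal endothelial cells line the liver's capillaries. They are perforated by fenestrae, lack a continuous basement membrane, and clear waste molecules from blood through scavenger receptors such as the stabilins. Vascular endothelial growth factor made by hepatocytes acts on its receptor on these cells, the product of Kdr, and helps to keep them fenestrated. Loss of that state, called capillarisation, is a known feature of liver disease.

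Promoters were looked up for the 10 genes in RefSeq's mouse assembly GRCm38.p6, and 7 had an entry (Kdr, Ehd3, Stab1, Stab2, Clec4g, Tek and Flt1). The 250 bases before the start were searched on both strands for GGAA, the core bound by ETS factors, a family that includes endothelial regulators. All 7 held it, as did 93.4% of the 32851 windows of that length in the table. The motif is short and does not set the 7 windows apart. The upstream sequences of Ehd3, which fell under the clamp, and of Stab1, which did not pass the test, are shown because they lie outside the gene models and put a called beside an uncalled marker. Capitals mark GGAA or its reverse complement TTCC. Ehd3 is read from chr17:73804591-73804840 (plus strand, 250 bases) and Stab1 from chr14:31168652-31168891 (minus strand, 240 bases).
Ehd3: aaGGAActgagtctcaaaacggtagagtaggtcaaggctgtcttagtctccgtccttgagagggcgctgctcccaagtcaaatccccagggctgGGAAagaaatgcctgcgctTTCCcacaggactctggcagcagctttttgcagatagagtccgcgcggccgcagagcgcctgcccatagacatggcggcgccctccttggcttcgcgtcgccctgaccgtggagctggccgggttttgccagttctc
Stab1: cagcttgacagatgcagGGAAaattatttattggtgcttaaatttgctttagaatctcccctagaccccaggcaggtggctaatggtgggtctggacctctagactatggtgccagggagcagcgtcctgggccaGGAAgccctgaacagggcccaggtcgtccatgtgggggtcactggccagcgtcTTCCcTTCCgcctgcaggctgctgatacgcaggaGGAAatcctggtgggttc
The Ehd3 stretch held 3 such cores and the Stab1 stretch 5. A GC box (GGGCGG or CCGCCC) occurred in the windows of Kdr (2) and Flt1 (3), the genes of a pair of growth factor receptors, and in none of the other 5, against 32.7% of all windows. A GATA motif (AGATAA or TTATCT) occurred in 0 of the 7 and in 9.99% of all windows, and an AP-1 motif (TGACTCA or TGAGTCA) in 0 of the 7 and in 4.46% of all windows. The windows of Kdr and Flt1 lie wholly inside the annotated gene models (0 bases outside), as does most of that of Tek (47 bases outside), so that their matches, GC boxes included, are not upstream of the gene models. These matches describe letters and not sites of binding.

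Arrays differed in spread and in acinar level, and both lay unevenly between basal and clamped mice. Among basal mice, the 7 with an animal number of at least 44 (3 palm oil, 4 control) had arrays with interquartile ranges of 2.44 to 2.54 log2 units, against 2.72 to 2.96 in the other 9 basal and 2.64 to 2.85 in the 16 clamped arrays. Pancreatic acinar transcripts averaged over 6 log2 units in 12 arrays, of which 9 were basal and 3 clamped. The median of that average was 6.95 in basal and 2.06 in clamped arrays. The liver label was borne out by hepatocyte markers, whose mean lay between 9.57 and 10.1 on every array. The endothelial list that these 10 genes do not belong to (26 measured pan-endothelial genes such as Cdh5 and Erg) had a mean level of 3.38 to 3.65 in basal and 3.33 to 3.60 in clamped mice, so that the groups overlapped.

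Under the clamp the markers split. Lyve1 rose 2.55-fold in control and 2.44-fold in palm oil mice, Kdr and Ehd3 fell in both, and the other 7 did not pass the test in either. In control mice 3 of the 10 were called at an adjusted p under 0.05 (1 rose, 2 fell), against 8.75% of all genes (4.66% rose, 4.09% fell). After palm oil the same 3 were called, in the same directions, against 7.57% of all genes (3.76% rose, 3.80% fell). The median of the 10 differences was -0.04 in control and 0.12 in palm oil mice, beside -0.02 over all genes in both. In liver taken whole, fewer cells of a type and less RNA per cell cannot be told apart.

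Lyve1 encodes a hyaluronan receptor that marks lymphatic vessels and, in liver, sinusoidal endothelium. Its level ran from 5.19 to 6.14 in control basal mice (median 5.82) and from 5.41 to 6.28 in palm oil basal mice (median 6.02). After the clamp it ran from 6.92 to 7.31 in control mice (median 7.14) and from 6.84 to 8.01 in palm oil mice (median 7.06). Every one of the 16 clamped livers lay above every one of the 16 basal livers, which held for 0.401% of all genes. Within control mice alone 1.39% and within palm oil mice alone 0.866% of genes were higher without overlap. Clamped exceeded basal by 1.35 ± 0.16 (SE, n = 7 and 7) in control mice, a 2.55-fold rise with a 95% interval of 2.02 to 3.20 (limma adjusted p = 7.29e-07). In palm oil mice the difference was 1.29 ± 0.14 (n = 9 and 9), 2.44-fold with an interval of 1.99 to 2.99 (adjusted p = 1.01e-07). Among lymphatic endothelial genes other than Lyve1, 0 of 3 measured (Pdpn, Prox1, Flt4) passed in either comparison, and their mean overlapped between basal (4.33 to 4.76) and clamped mice (4.37 to 4.99). Whole liver does not show which cells these 3 transcripts come from, and Flt4 is also on the growth factor list below. A lymphatic source of the Lyve1 signal was therefore not tested.

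Kdr, the main signalling receptor for vascular endothelial growth factor A, moved the other way. Control basal mice held between 5.54 and 6.08 (median 5.72) and palm oil basal mice between 5.59 and 6.32 (median 5.92). Clamped control mice spread widely, from 3.36 to 5.25 (median 4.87), and clamped palm oil mice lay between 4.73 and 5.56 (median 5.25). Within each gavage all clamped mice were below all basal mice. Such a separation was found for 1.16% of genes in control and 0.586% in palm oil mice. The difference was -1.09 ± 0.20 in control mice, a 2.13-fold fall with an interval of 1.61 to 2.82 (adjusted p = 2.78e-04). It was -0.78 ± 0.18 in palm oil mice, 1.72-fold with an interval of 1.34 to 2.20 (adjusted p = 0.00293). Control clamped replicate 7 was the lowest array for Kdr, and without it the control difference was -0.87 (adjusted p = 4.02e-04).

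Ehd3, an endocytic recycling protein used as a marker of this endothelium, fell less. It lay between 6.00 and 6.31 in control basal mice (median 6.07) and between 5.93 and 6.43 in palm oil basal mice (median 6.25). Clamped control mice held 5.04 to 5.95 (median 5.48), all below the control basal mice (1.16% of all genes), and clamped palm oil mice 5.31 to 5.99 (median 5.76), of which 7 of 9 were below all palm oil basal mice. The differences were -0.68 ± 0.12 in control mice (1.60-fold, interval 1.36 to 1.89, adjusted p = 1.44e-04) and -0.48 ± 0.10 in palm oil mice (1.39-fold, interval 1.20 to 1.61, adjusted p = 0.00217). The difference between those effects was not called for Lyve1 (-0.06 ± 0.22), Kdr (0.31 ± 0.27) or Ehd3 (0.20 ± 0.16), each with an adjusted p of 1.00. The order of group means for Kdr and Ehd3 was palm oil basal, control basal, palm oil clamp and control clamp, and the adjacent basal groups overlapped, as did the adjacent clamped groups.

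**Figure D1:**
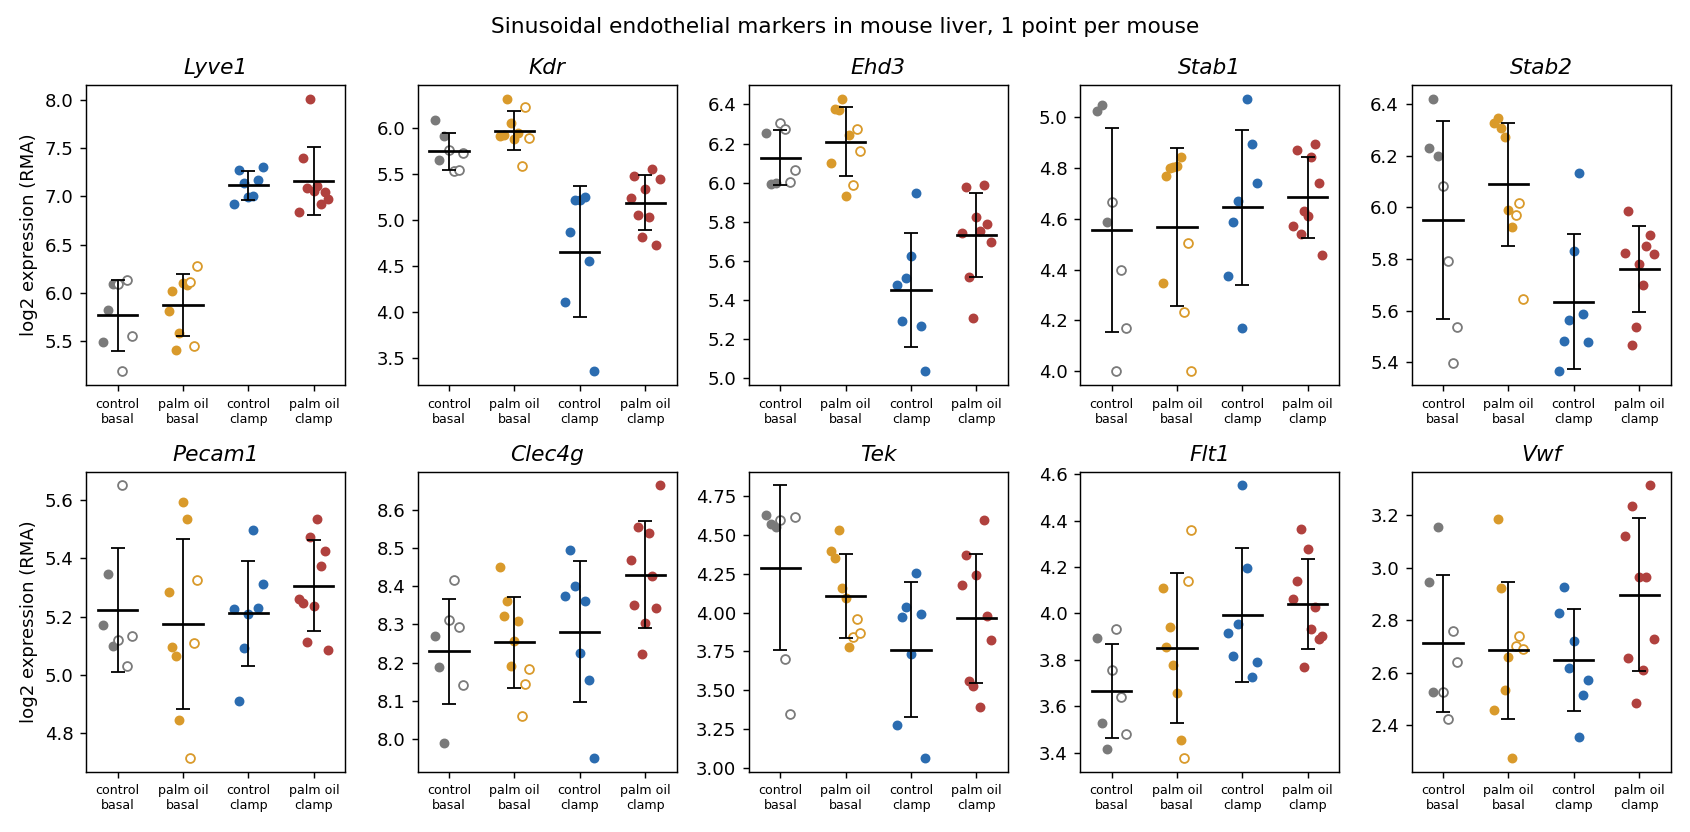
Log2 expression of the 10 markers (vertical axes, each with its own range) in the 4 groups of mice, with 1 point per mouse, the mean as a line and bars of 1 SD. Open points are the basal mice numbered 44 or higher. Lyve1 lies at 6.84 to 8.01 in all clamped and at 5.19 to 6.28 in all basal mice. Kdr and Ehd3 lie lower in clamped mice but overlap over all mice. The highest clamped and lowest basal values are 5.56 and 5.54 for Kdr and 5.99 and 5.93 for Ehd3. The other 7 overlap too.

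The scavenger receptors Stab1 and Stab2, which take up modified lipoproteins, hyaluronan and collagen fragments, were not called. Stab1 spanned 4.00 to 5.05 in control basal, 4.00 to 4.84 in palm oil basal, 4.17 to 5.07 in control clamped and 4.46 to 4.89 in palm oil clamped mice, with medians of 4.59, 4.77, 4.67 and 4.63. The 4 ranges overlapped almost wholly. Clamped minus basal was 0.09 ± 0.16 in control and 0.12 ± 0.14 in palm oil mice. Stab2 spanned 5.40 to 6.42 in control basal (median 6.08) and 5.65 to 6.35 in palm oil basal mice (median 6.02). After the clamp it spanned 5.37 to 6.13 (median 5.56) and 5.47 to 5.98 (median 5.82) in control and palm oil mice. The clamped mice reached less high but the groups overlapped, with differences of -0.32 ± 0.14 (adjusted p = 0.181) and -0.33 ± 0.12 (adjusted p = 0.113).

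The call on Stab2 depended on the setting. It passed in control and palm oil mice when quantile normalization was repeated (-0.39 and -0.37, adjusted p = 0.0352 and 0.0241). With palm oil it also passed with the acinar level as a covariate (adjusted p = 0.0367), in a fit of the compared groups alone (0.0497) and with array weights (0.0272). Stab2 also differed between basal arrays. The 7 of mice numbered 44 or higher averaged 5.78 for Stab2 against 6.22 in the other 9 basal arrays, and 4.28 against 4.78 for Stab1. After group means were subtracted, the correlation with an array's interquartile range over the 32 arrays was 0.72 for Stab2, 0.68 for Stab1 and 0.48 for Tek. It lay between -0.11 and 0.23 for the other 7. Without the 7 arrays Stab2 passed in both, with differences of -0.65 in control (adjusted p = 0.00679) and -0.43 in palm oil mice (adjusted p = 0.0142). Stab1 stayed uncalled, at -0.24 and -0.04. Whether the spread of an array plays a part in these levels was not tested.

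**Figure D2:**
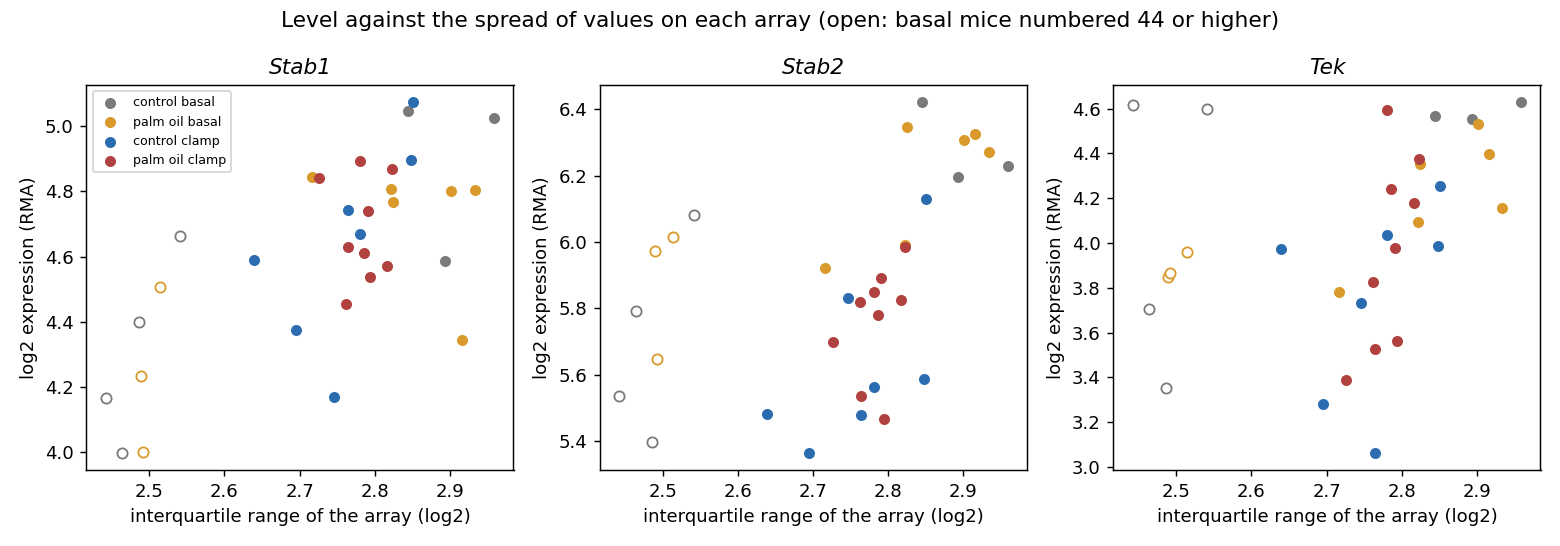
Log2 expression of Stab1, Stab2 and Tek (vertical axes) against the interquartile range of all values on the same array (horizontal axes, log2 units), with 1 point per mouse coloured by group. The open points, basal mice numbered 44 or higher, have ranges of 2.44 to 2.54 and average 5.78 for Stab2, against 6.22 in the other basal mice.

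Tek encodes the receptor of the angiopoietins. It spanned 3.35 to 4.63 in control basal (median 4.57), 3.78 to 4.53 in palm oil basal (median 4.10), 3.06 to 4.25 in control clamped (median 3.97) and 3.39 to 4.60 in palm oil clamped mice (median 3.98). Control basal mice fell into 5 arrays near the top of the range and 2 low ones, and the groups overlapped. The difference was -0.53 ± 0.21 in control mice (adjusted p = 0.121) and -0.15 ± 0.18 in palm oil mice (adjusted p = 0.763). In control mice it passed without control basal replicate 6 (-0.68, adjusted p = 0.0264) and when the 7 basal mice numbered 44 or higher were left out (-0.82, adjusted p = 0.0458). Flt1, a high-affinity receptor that also traps vascular endothelial growth factor, leaned upward. It spanned 3.42 to 3.93 (median 3.64) in control basal and 3.73 to 4.55 (median 3.92) in control clamped mice, of which 3 of 7 lay above all control basal mice, a difference of 0.33 ± 0.14 (adjusted p = 0.152). Palm oil mice spanned 3.38 to 4.36 (median 3.86) before and 3.77 to 4.37 (median 4.03) after the clamp, a difference of 0.19 ± 0.12 (adjusted p = 0.452). Kdr and Flt1, which share ligands, thus had differences of opposite sign, of which that of Kdr alone was called.

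Clec4g, a C-type lectin of sinusoidal endothelium also known as LSECtin, kept within a narrow band. Its medians were 8.27 in control basal, 8.26 in palm oil basal, 8.36 in control clamped and 8.43 in palm oil clamped mice, and the lowest and highest of all arrays were 7.95 and 8.66. Clamped minus basal was 0.05 ± 0.09 in control and 0.18 ± 0.08 in palm oil mice (adjusted p = 0.824 and 0.209). The intervals, -0.13 to 0.23 and 0.02 to 0.34, leave out changes of the size of Lyve1 or Kdr. Pecam1, an adhesion molecule of endothelial junctions, had medians of 5.13, 5.11, 5.23 and 5.26 in the same order, within 4.72 to 5.65 over all arrays, and differences of -0.01 ± 0.12 and 0.13 ± 0.11. Vwf, a clotting glycoprotein that larger vessels make more than sinusoids do, had medians of 2.64, 2.69, 2.62 and 2.96, within 2.27 to 3.32. Its differences were -0.06 ± 0.14 and 0.21 ± 0.12, and all 4 groups overlapped for these 3 genes.

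**Figure D3:**
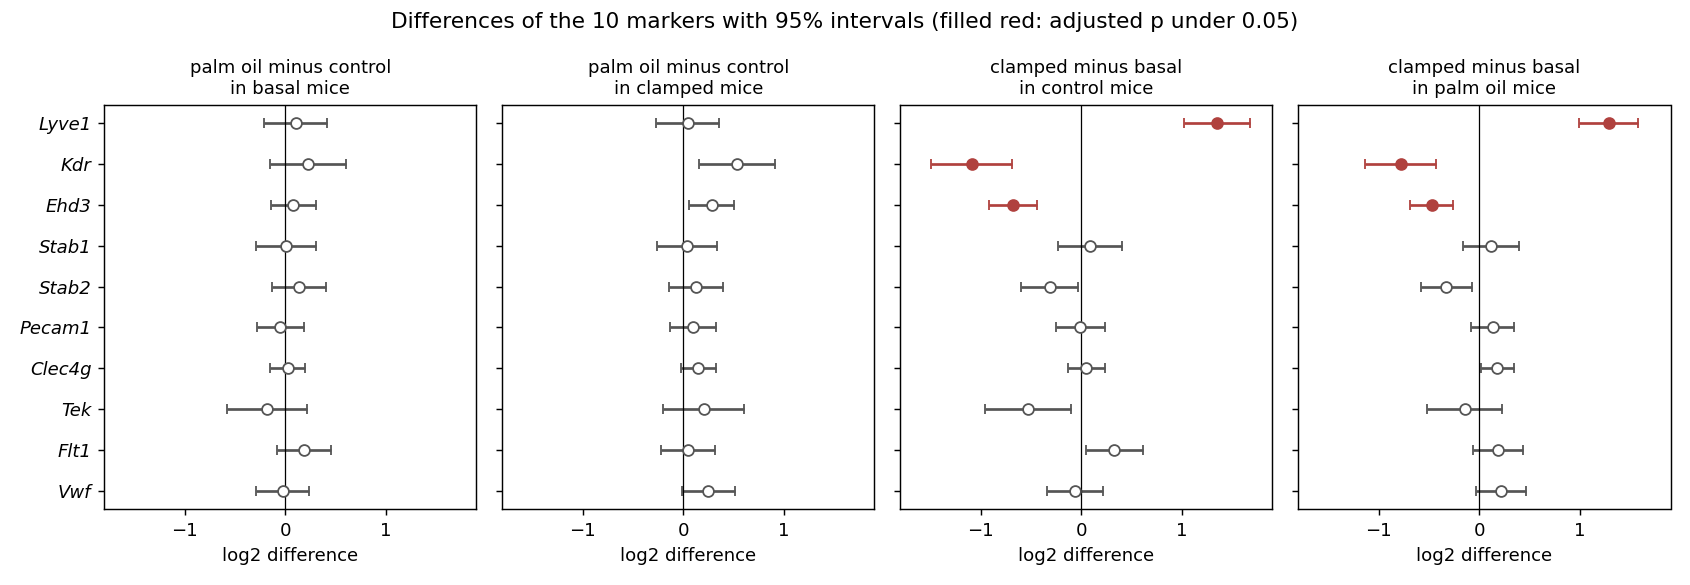
Log2 differences (horizontal axes) of the 10 markers with 95% intervals in the 4 comparisons, with palm oil minus control on the left and clamped minus basal on the right. Filled red points passed an adjusted p of 0.05, which Lyve1, Kdr and Ehd3 did in both clamp comparisons and no marker did between palm oil and control.

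Palm oil did not give a called difference in any of the 10, and for each of them the palm oil and control groups overlapped. Among all genes, groups without overlap were as rare as 0.00902% higher and 0.00451% lower in basal mice, and 0% higher and 0.00902% lower in clamped mice. In basal mice 0 of 10 were called, beside 0% of all genes, and 0 of the 10 had an unadjusted p under 0.05 (1134 of all genes did). Differences ran from -0.18 ± 0.20 (Tek) to 0.23 ± 0.19 (Kdr), 7 of the 10 lay above 0, and the median was 0.05 beside 0.00 over all genes. In clamped mice 0 of 10 were again called, beside 0% of all genes by limma and 0 genes by an exact rank sum test, with an unadjusted p under 0.05 for 2 of the 10 and for 781 genes. All 10 differences were above 0, where 50.4% of all genes were, from 0.04 ± 0.15 (Stab1) to 0.53 ± 0.19 (Kdr), with a median of 0.14. The lean was not particular to the 10. In lists described below, 13 of 13 other sinusoidal endothelial, 12 of 13 Kupffer cell and 18 of 26 pan-endothelial genes were above 0. For hepatocyte genes it was 5 of 12 and for neutrophil genes 3 of 11. The 10 values come from the same arrays and are not 10 independent observations. Kdr was higher than in any control clamped mouse in 4 of 9 palm oil clamped mice (adjusted p = 1.00, unadjusted p = 0.00757). That difference was 0.32 without control clamped replicate 7. Ehd3 had the other unadjusted limma p under 0.05 (0.28 ± 0.11, adjusted p = 1.00). The 95% interval of the palm oil difference in clamped mice was -0.27 to 0.36 for Lyve1 and 0.15 to 0.91 for Kdr. The interaction of palm oil and clamp was called for 0 of the 10 and 0% of all genes, with an unadjusted p under 0.05 for 0 of the 10 and for 773 genes, and Tek had the highest value (0.38 ± 0.28).

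Other genes were taken from lists of the same cells and pathways. Whole liver does not show which cells a transcript on these lists comes from. Among 13 further sinusoidal endothelial genes, 1 rose and 3 fell in control mice and 0 rose and 2 fell in palm oil mice, with medians of -0.20 and -0.11. The counts of this and the following lists stand beside the 8.75% (control) and 7.57% (palm oil) of all genes called, and no list was tested against other genes. Nr2f2, a transcription factor of venous identity, fell in both. It lay between 4.56 and 5.42 in the 16 basal mice and between 3.04 and 4.49 in the 16 clamped mice, with no overlap, as for 0.221% of all genes lower in clamped mice. Its differences were -1.14 ± 0.15 (adjusted p = 4.46e-06) and -1.08 ± 0.14 (adjusted p = 1.05e-06). Dnase1l3, a secreted nuclease of these cells, fell in control mice (-0.71 ± 0.16, adjusted p = 0.00361). That call was lost with an exact rank sum test (adjusted p = 0.0916). In palm oil mice it was not called, with means of 5.80 in basal and 5.40 in clamped mice. Its interaction was not called either (0.31 ± 0.22). Gata4, a transcription factor of sinusoidal identity, fell in both, with differences of -0.35 ± 0.11 and -0.36 ± 0.10 (adjusted p = 0.0476 and 0.0212). The control call for Gata4 was lost in 18 of 25 other settings, and that of Adam23, the gene that rose (0.58 ± 0.17, adjusted p = 0.0216), in 9 of 25. The scavenger receptors Mrc1 and Fcgr2b, called in neither comparison, were at -0.33 ± 0.16 and -0.25 ± 0.14 in control mice. In palm oil mice the differences were less negative by 0.20 ± 0.22 and 0.12 ± 0.18 (interaction, not called). Both genes are named after their values were seen.

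Of the 26 pan-endothelial genes, 2 rose and 3 fell in control and 2 rose and 1 fell in palm oil mice, with medians of -0.06 and -0.02. Esam, a junctional adhesion molecule, rose by 0.63 ± 0.18 and 0.86 ± 0.16 (adjusted p = 0.0245 and 4.22e-04). Cldn5, a tight junction protein, fell by 0.59 ± 0.18 and 0.58 ± 0.16 on the log2 scale (adjusted p = 0.0364 and 0.0185). Nos3, the endothelial nitric oxide synthase, rose in control mice (0.57 ± 0.17, adjusted p = 0.0283), and Adgrf5, an adhesion receptor, in palm oil mice (0.46 ± 0.12, adjusted p = 0.0139). Erg and S1pr1 fell in control mice; they fall outside the rule for named genes and complete the count. Other settings ended the control calls of Erg and S1pr1 in 17 of 25, Cldn5 in 14, Nos3 in 12 and Esam in 9, and in palm oil mice those of Cldn5 in 4, Adgrf5 in 3 and Esam in 1 of 29.

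On the growth factor axis of Kdr, Flt1 and Tek, 0 of 13 genes rose and 1 fell in each comparison (medians -0.02 and -0.05), a share near that of all genes called. The gene that fell was Plcg1, the phospholipase that KDR activates. Plcg1 lay between 4.95 and 5.80 in control basal and between 3.79 and 5.10 in control clamped mice. It lay between 4.98 and 5.55 in palm oil basal and between 4.60 and 5.05 in palm oil clamped mice. The ranges overlapped in both, and the differences were -0.78 ± 0.15 (adjusted p = 4.47e-04) and -0.48 ± 0.13 (adjusted p = 0.0158). The control call was lost with an exact rank sum test (adjusted p = 0.0916) and the palm oil call without the 12 arrays of high acinar level (adjusted p = 0.0870). The ligand Vegfa was at -0.02 ± 0.11 and -0.05 ± 0.09, and Angpt2, an antagonist of Tek's product, at 0.53 ± 0.19 (adjusted p = 0.0721) and -0.01 ± 0.16. None of 10 Notch pathway genes and none of 10 zonation and angiocrine genes (such as Wnt2 and Rspo3) was called in either comparison.

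The list of endothelial activation and shear response held the most calls of the endothelial lists. Of 13 genes measured, 7 rose and 1 fell in control mice and 6 rose and 1 fell in palm oil mice, with medians of 0.48 and 0.36. The mean of the list was 2.14 to 2.47 in the 16 basal and 2.61 to 3.11 in the 16 clamped mice, without overlap. The share of gene lists that separate in this way was not computed. The list was also chosen with earlier results known, so that the separation is a description. Thbd, which encodes the anticoagulant thrombomodulin, rose from a median of 3.12 (2.43 to 3.21) to 4.48 (4.33 to 4.88) in control mice, a difference of 1.56 ± 0.18 (adjusted p = 2.67e-07). With palm oil it rose from 2.63 (2.37 to 3.52) to 4.38 (3.49 to 4.71), by 1.48 ± 0.16 (adjusted p = 4.19e-08). Vcam1, a leukocyte adhesion molecule that Kupffer cells also carry, rose by 0.88 ± 0.18 (adjusted p = 9.59e-04) and 1.40 ± 0.16 (adjusted p = 9.05e-08). Its control call was lost without the 12 arrays of high acinar level and with an exact rank sum test. F3, tissue factor, which starts clotting, fell by 0.95 ± 0.17 and 1.04 ± 0.15 on the log2 scale (adjusted p = 1.52e-04 and 5.64e-06). Its medians were 2.305 and 1.13 in control basal and clamped mice, and 2.495 and 1.44 in palm oil basal and clamped mice. The median of all values on an array lay between 1.65 and 1.77, so that F3 was dim. The thrombomodulin and tissue factor genes thus moved in opposite directions. The others that rose in both were Icam1, Adamts1, Apold1 and Klf2, with Klf4 called in control mice alone. They are listed to complete the count. Sele, Selp, Esm1, Edn1 and Procr were called in neither comparison. Whole liver does not show which cells the called transcripts come from, and activation of endothelium was not tested. The number that rose in control mice was 3 without the 12 arrays of high acinar level and also 3 with an exact rank sum test. It was 4 when basal mice numbered 44 or higher were left out (Vcam1, Klf2 and Thbd, with Sele gained). Among palm oil mice it was 4 without the 12 arrays. Without control basal replicate 1, control basal replicate 3 or control clamped replicate 5 in turn, the control number was 5.

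**Figure D4:**
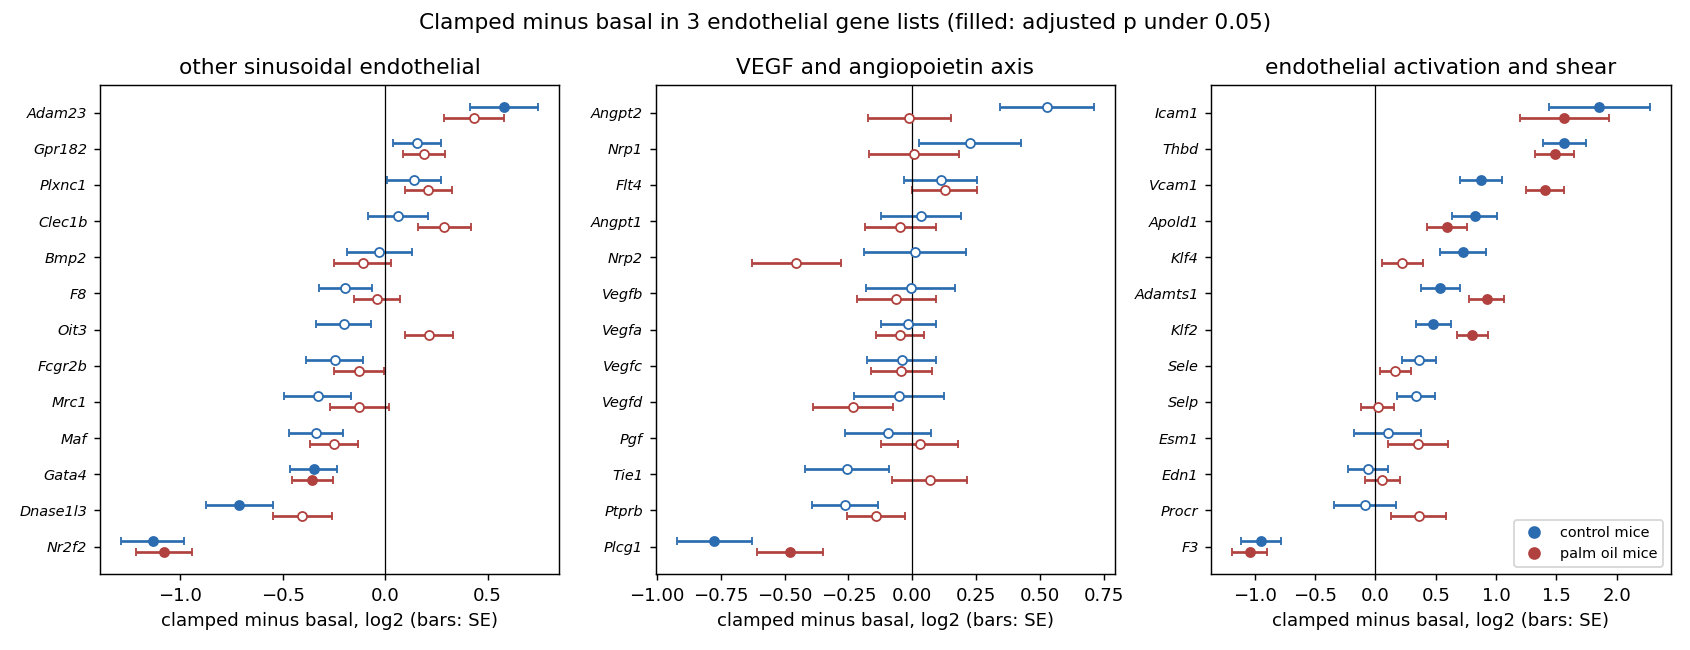
Clamped minus basal log2 differences (horizontal axes, bars of 1 SE) for the genes of 3 endothelial lists, in control mice (blue) and palm oil mice (red). Filled points passed an adjusted p of 0.05. Nr2f2, Plcg1 and F3 lie below 0 and Thbd, Icam1 and Vcam1 above 0 with filled points in both groups of mice.

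Markers of other cells changed in the same comparisons. Neutrophil genes rose in 6 of 11 in each (medians 1.03 and 0.87), led by S100a9 (2.82 ± 0.25 and 2.47 ± 0.22) and S100a8 (3.58 ± 0.37 and 3.85 ± 0.32). The neutrophil list mean was 1.65 to 2.32 in basal and 2.47 to 3.33 in clamped mice, without overlap. Here too the share of lists that separate was not computed, and the separation is a description. Kupffer cell genes rose in 4 of 13 in each (medians 0.20 and 0.31), among them Marco (1.62 ± 0.34 and 1.65 ± 0.30), and that list mean overlapped (5.04 to 5.54 against 5.20 to 5.88). Without the 12 arrays of high acinar level 0 Kupffer cell genes rose in control and 1 in palm oil mice. Of 8 platelet genes 1 rose in each, Itgb3 (1.52 ± 0.17 and 1.40 ± 0.15). Acinar genes had medians of -2.91 and -2.69 with 1 of 11 (Try5) and 0 of 11 called. In control mice 3 of 12 hepatocyte, 1 of 5 cholangiocyte, 0 of 16 stellate and 0 of 8 lymphocyte genes rose and none of these fell. For palm oil mice the numbers that rose were 3, 1, 2 and 0, with falls in 1 stellate and 2 lymphocyte genes. Many of those calls did not hold in other settings: the stellate genes Lrat, Dcn and Rgs5 lost theirs in 19, 17 and 10 of 29, and the lymphocyte genes Cd79a and Cd79b in 17 and 14 of 28. The 3 hepatocyte calls in control mice were lost when basal mice numbered 44 or higher were left out. The part that shares of other cells play in the levels of the 10 markers was not tested. Without the arrays of high acinar level the clamp differences of Lyve1, Kdr and Ehd3 were 1.32, -1.18 and -0.75 in control and 1.51, -0.95 and -0.62 in palm oil mice, and each was called. In the palm oil comparisons and the interaction 0 genes of any list were called. Besides the 10 markers, the smallest unadjusted p among the genes of the endothelial lists was that of Vcam1 in basal mice (-0.42 ± 0.17) and of Oit3 in clamped mice (0.35 ± 0.13).

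After each group mean was subtracted, the 10 markers did not vary as a block over the 32 arrays. Of 45 pairs 30 correlated above 0, with a median Pearson r of 0.05. The closest were Stab2 and Tek (0.67), Kdr and Ehd3 (0.65), Kdr and Tek (0.65) and Stab1 and Stab2 (0.59). Kdr and Ehd3 kept 0.49 without the 2 arrays farthest from the median. Lyve1 and Ehd3 had the lowest value (-0.52). The points share RNA, labelling and normalization of an array, and the mean of the 10 had an r of 0.54 with the array's interquartile range. That mean, in standardised units, was lowest in control clamped replicate 7, which held the lowest values of the series for Kdr (3.36), Tek (3.06), Ehd3 (5.04) and Clec4g (7.95). It was highest in control clamped replicate 5.

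**Figure D5:**
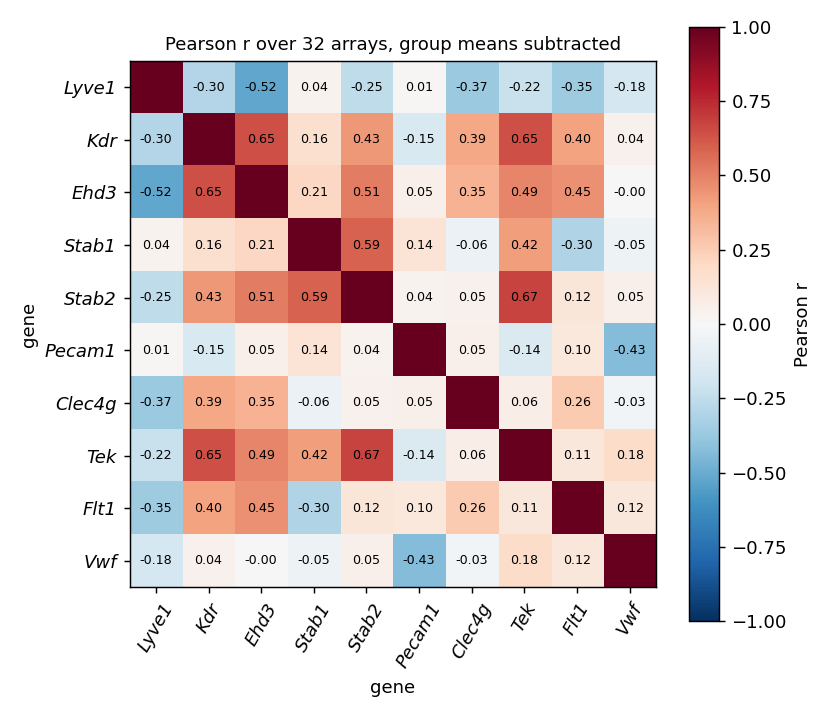
Pearson correlations between the 10 markers over 32 arrays with group means subtracted, each cell 1 pair and its colour and number the value of r. Stab2, Tek, Kdr and Ehd3 correlate at 0.43 to 0.67 with each other, and Lyve1 and Ehd3 have the lowest value, -0.52.

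The genes outside the 10 whose residuals were most like the mean of the 10 were Dlst, Vps13c and Atad3a (r = 0.78 each), followed by Cyp2d13, Mat1a, Kif13b, Usp34, Mylk, Vps13d and Cpt1a (0.70 to 0.73), over 32 arrays. None belongs to the endothelial lists. For single markers the most alike genes were Nol9 for Lyve1 (0.74), Arhgef11 for Kdr (0.71), Sdr42e1 for Ehd3 (0.70), Dido1 for Stab1 (0.83), Birc6 for Stab2 (0.81) and Psmg1 for Tek (0.76). For Pecam1, Clec4g, Flt1 and Vwf they were Mcmbp (0.63), Dennd5b (0.70), Miat (0.67) and Gldnos (0.60). These are the highest of 22170 values each and carry no test.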

How the data were processed

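Each of 32 mice gave liver RNA for 1 Mouse Gene 2.1 ST array (Affymetrix). The submitters' processing notes name RMA and Expression Console 1.3.0.187, with which the authors produced log2 values, used here as deposited. RMA compresses low values, so that folds of dim genes are understated. Of 41345 probe sets, 23521 had 1 symbol in the platform annotation, 1814 had several and 16010 were not listed. The probe set with the highest mean per symbol left 22180 genes.

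Groups came from sample titles. Tests used limma 3.58.1 (R 4.3.3, lmFit and eBayes) with 1 mean per group over all 32 arrays (28 residual degrees of freedom), and p-values were adjusted by Benjamini-Hochberg over all genes with a threshold of 0.05. Values after ± are standard errors and intervals are at 95%. The functions were tested on simulated data. The number of arrays limits the precision.

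The 10 members and the 15 other lists were chosen with earlier results of these data known, and the 11 other settings besides leaving out arrays in turn were set with them known too. Named genes were the members, up to 3 called genes with the smallest p per list and clamp comparison, the gene with the smallest p per list in the palm oil comparisons and the interaction (some left out), and the most alike genes. Motifs were searched as exact letters in RefSeq promoters.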

Additional observations from a re-analysis of the deposited data

Results flagged for a closer look

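Lyve1 in palm oil clamped replicate 4 was 8.01, far from the other 8 mice of its group, the nearest of which was 7.40. The gap was 0.52 of the group's range, above the limit of 0.49 for 9 samples. Chance alone passes that limit in about 1 in 20 combinations of marker and group. Of the 40 combinations looked at, this was the only one that passed, which is no more than chance would give. Without that array the clamp difference of Lyve1 in palm oil mice was 1.18 (adjusted p = 1.30e-07).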

How the results depend on the processing

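Lyve1, Kdr and Ehd3 kept their direction and their call in both clamp comparisons under every alternative run. In control mice 5 of the 10 markers were called, with Stab2 and Tek added, when quantile normalization was repeated (5), with a term for the basal arrays numbered 44 or higher (5) and without those arrays (5). Leaving out each array in turn gave 3 to 4 called markers in control mice, 3 to 3 in palm oil mice, and 0 to 0 in the palm oil comparisons and the interaction. In palm oil mice Stab2 passed under 7 alternatives, with differences of -0.57 to -0.33, and 4 markers were then called. The replicate number as a block left 3 markers called in each clamp comparison and 0 in the others, and changed no call of a marker. The replicate numbers were not taken to pair mice: the correlation of their deviations lay between -0.23 and 0.02 over 7 pairs in the control clamp comparison and between -0.12 and 0.13 in the palm oil one. Between palm oil and control it lay between -0.17 and 0.29 in basal mice, with 5 of 7 pairs over 0.1 and 2 best with their own number, and between -0.19 and 0.18 in clamped mice. The number of all genes called in control mice (1940) was 1026 without the basal arrays numbered 44 or higher, 993 without the arrays of high acinar level and 1120 with an exact rank sum test. In palm oil mice (1678) it was 736 without the arrays of high acinar level. Those settings use fewer arrays or ranks, and any other cause was not tested. No background level was given for the arrays, so that low values such as those of Vwf (2.27 to 3.32) have no stated detection limit. The same holds for dim called genes such as F3, Klf2, Klf4, Apold1, Nos3 and Cldn5, whose group medians lay between 1.13 and 2.68.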
